A study of Mus musculus with 12 samples.

Results

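Cytosolic ribosomal proteins were followed in mouse cumulus cells, the granulosa-derived cells that surround the oocyte. The genes were chosen by symbol: every row named Rpl or Rps followed by a digit, Rplp0, Rplp1, Rplp2 and Rpsa, without the Rps6k kinases, entries marked as pseudogenes, and Rps27a. This gave 86 of the 23997 rows of the deposited table. Of these, 76 code for structural subunit proteins (46 of the large subunit, its 3 stalk proteins included, and 30 of the small subunit), 8 are paralogs of such genes, 1 is Rps27rt, a retrocopy of Rps27, and 1 is Rps19bp1, which codes for a nucleolar protein that is not a subunit. All groups were C57BL/6J females, 3 or 6 months old, either wild type (WT) or knockout for ClpP (KO), the protease of the mitochondrial matrix. Each mouse had been given 5 IU of pregnant mare serum gonadotropin, and 100 cumulus cells per mouse made 1 library, so the 3 libraries of each of the 4 groups come from separate animals. Values are FPKM (fragments per kilobase of transcript, scaled to the mapped fragments of the library), a level per unit of length.

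The cytosolic ribosome has a small subunit, which reads the codons of the mRNA, and a large subunit, which joins the amino acids. Each protein is needed in about equal amounts, and most of the mRNAs carry a terminal oligopyrimidine tract, a run of C and T that begins at the first transcribed base and through which mTORC1 and LARP1 control their translation. Growing granulosa and cumulus cells make large amounts of protein and divide under gonadotropin stimulation. In this setting ribosomal protein mRNAs are among the most abundant of the cell.

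Depth and sample makeup were uneven between libraries. Counts were not used here; the spacing of low values put the relative depth of the libraries at 0.641 to 1.0. Entries for small RNAs held 25.7% of the FPKM sum in 3-month WT library 1, 32.0% and 37.5% in library 3 of the younger and of the older KO mice, and at most 6.81% in the other 9. All 8 granulosa and cumulus markers were above 0 in every library, with a summed level of 2775 to 6781 FPKM. The 8 theca and stromal markers summed to 1166 and 1426 FPKM in these same KO libraries, against 0.534 to 150 FPKM in the others. The 8 blood and leukocyte markers summed to 742, 719, 1489 and 754 FPKM in library 3 of the 4 groups (3-month WT, 3-month KO, 6-month WT, 6-month KO) and to 0.854 to 37.1 FPKM in libraries 1 and 2. The 8 oocyte markers summed to 41.1 and 190 FPKM in the 2 KO libraries numbered 3 and to at most 9.30 FPKM elsewhere. None of these markers was at 0 in all 12 libraries. Clpp itself was at 88.2 to 146 FPKM in WT and 0.769 to 6.63 FPKM in KO libraries. In such bulk samples, fewer cells of a type and less RNA per cell cannot be told apart.

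Ribosomal protein mRNAs stood far above most genes. The 76 structural members had mean levels of 72.9 to 5324 FPKM over the 12 libraries, with a median of 1298 FPKM, while the median over the 11196 genes tested was 7.95 FPKM. Of the 149 tested genes with a mean of at least 1000 FPKM, 48 were members. All 76 structural members passed the filter on low values (at least 1 FPKM in at least 3 libraries); 83 of the 86 members did, and the others were the paralogs Rpl10l, Rpl3l and Rpl39l.

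The highest member was Rpl41, the smallest protein of the large subunit, with a mean of 5324 FPKM. Its level was 3835, 7002 and 5112 FPKM in 3-month WT, 4088, 4492 and 4384 FPKM in 3-month KO, 5295, 6119 and 7703 FPKM in 6-month WT, and 4733, 5404 and 5720 FPKM in 6-month KO libraries. WT and KO overlapped at both ages, and the 3-month KO libraries lay close together. Other members of high level were the small subunit genes Rps29 (mean 3267 FPKM) and Rps14 (3258 FPKM), and the retrocopy Rps27rt (3202 FPKM). These neighbours differed in mean by far less than their ranges over libraries, which for Rps29 ran from 2199 to 4425 FPKM and for Rps14 from 2094 to 4732 FPKM.

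At the other end, Rps15a of the small subunit (mean 72.9 FPKM) and Rpl22 of the large subunit (81.8 FPKM) lay well below the next structural gene, Rpl30, at 296 FPKM. Rps15a was at 53.2, 93.9 and 69.8 FPKM in 3-month WT, 63.9, 68.2 and 59.1 FPKM in 3-month KO, 56.7, 68.3 and 121 FPKM in 6-month WT, and 57.9, 65.8 and 96.9 FPKM in 6-month KO. Near-identical copies bear on such low values, since reads can be shared among them in ways the sources do not record. The entries Rps15a-ps4 and Rps15a-ps6 held means of 7.37 and 7.56 FPKM, so their sum with Rps15a remained low. For Rpl34 the case was different: Rpl34-ps1, an entry named as a pseudogene and singled out after its values were seen, was at 934 to 1792 FPKM, against 341 to 671 FPKM for Rpl34 itself. Levels of Rpl34, Rps15a and the Rps27 genes are therefore uncertain.

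The order of the structural members by level was nearly the same in all libraries. Spearman's rho between libraries, across these 76 genes, ran from 0.931 to 0.994 over the 66 pairs, with a median of 0.972; it is a description, since gene length and reference are shared by all libraries. The median within-group SD of log2(FPKM + 1) was 0.30 for structural members and 0.50 for all tested genes. All tested genes had a far lower median level (7.95 against 1298 FPKM), and no genes of matched level were compared. Subtracting each library's member median brought the structural value down to 0.14. Much of the spread was thus a shift of the structural members together from library to library. The median over all tested genes moved less, from 6.71 FPKM in 3-month WT library 2 to 8.04 FPKM in 3-month KO library 3.

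That shift was largest in 3-month WT, as the heat map shows. In library 1 of that group 62 of 76 structural members had their lowest level of all 12 libraries, against 11.8% of all tested genes. In library 2 of the same group 53 of 76 had their highest level, against 11.8% of all tested genes, and all 76 were highest of the 3, against 32.2%. The median structural level was 895, 1730 and 1229 FPKM in 3-month WT, 1065, 1292 and 1212 FPKM in 3-month KO, 1239, 1282 and 1511 FPKM in 6-month WT, and 1143, 1200 and 1379 FPKM in 6-month KO. The 3-month WT libraries enclosed the other 9, and all groups overlapped.

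**Figure D1:**
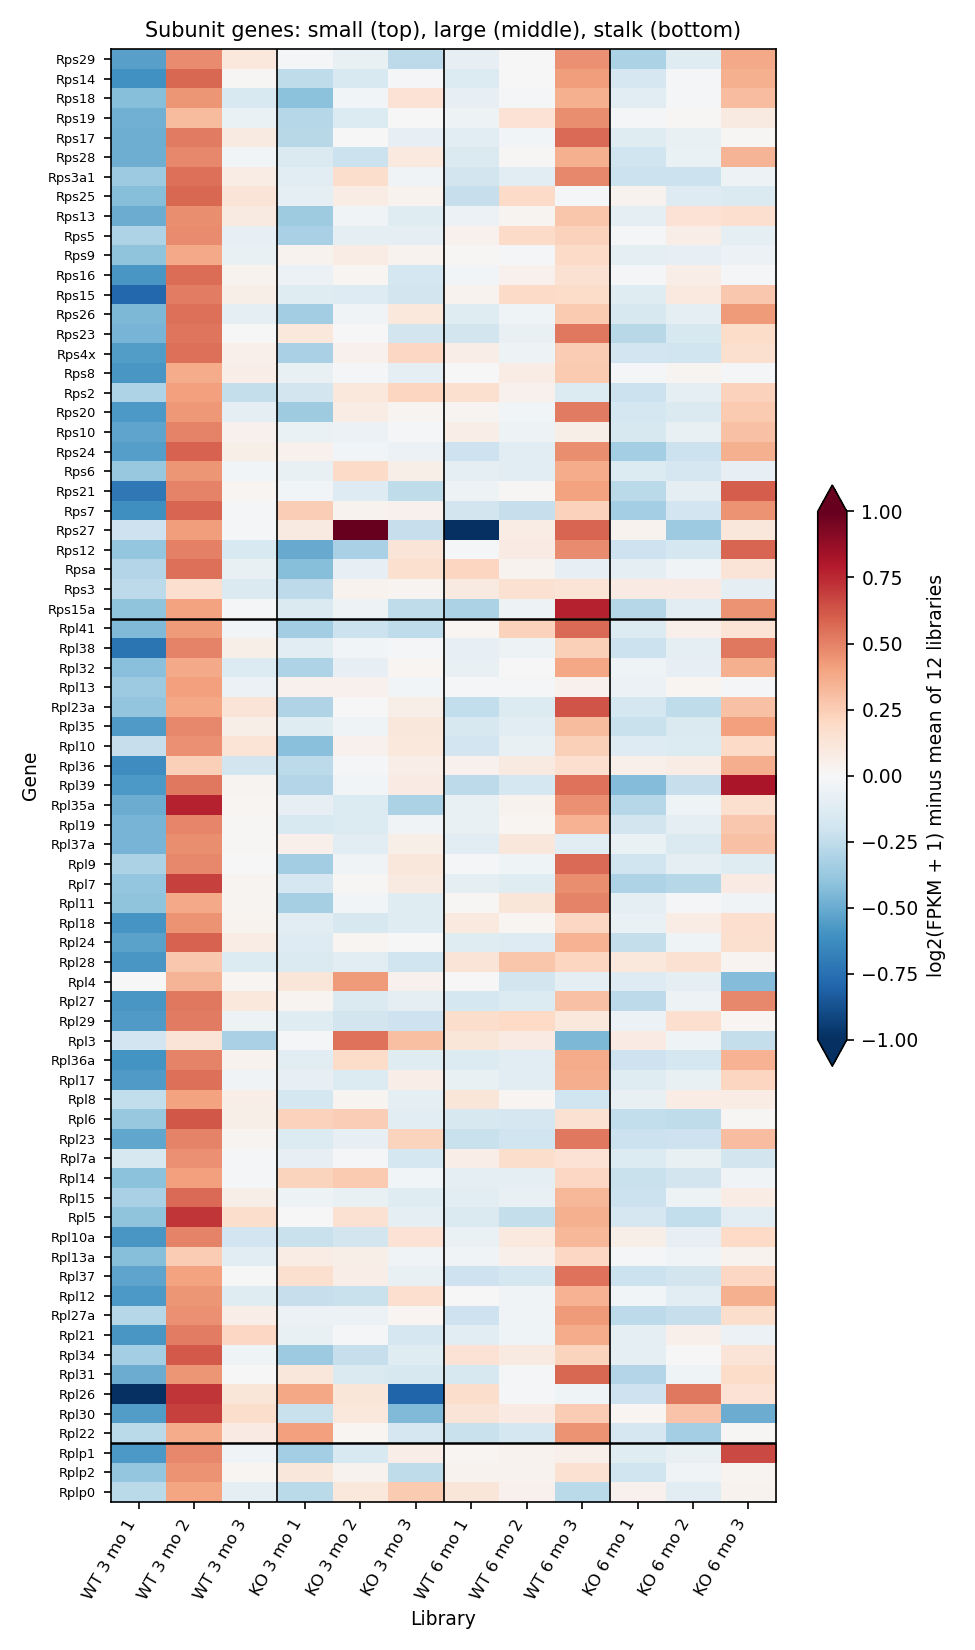
Each row is 1 of 74 of the 76 structural members, ordered by mean level within the small subunit, the large subunit and the stalk, and each column is 1 library. Colour is log2(FPKM + 1) minus the gene's mean over 12 libraries and saturates beyond 1; 3-month WT library 1 is low and library 2 high in nearly every row, while Rps27, Rpl26, Rpl3 and Rpl4 depart from the common columns.

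As a share of the FPKM sum the 86 members held 9.48%, 17.6% and 13.9% in 3-month WT, 15.1%, 14.8% and 10.8% in 3-month KO, 16.7%, 17.4% and 16.7% in 6-month WT, and 16.1%, 15.4% and 9.48% in 6-month KO. The 3 libraries rich in small RNA gave the 3 lowest shares. With small RNA entries left out of the sum, the shares were 12.8%, 17.7% and 14.9%, then 15.2%, 15.4% and 15.9%, then 16.7%, 17.7% and 16.7%, then 16.1%, 15.5% and 15.1% in the same order. On that basis all 3 libraries of 6-month WT lay above all 3 of 6-month KO, by a mean of 17.1% ± 0.564 against 15.6% ± 0.498 (SD, n = 3 each), while at 3 months the KO libraries lay inside the WT range. These shares were not tested.

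**Figure D2:**
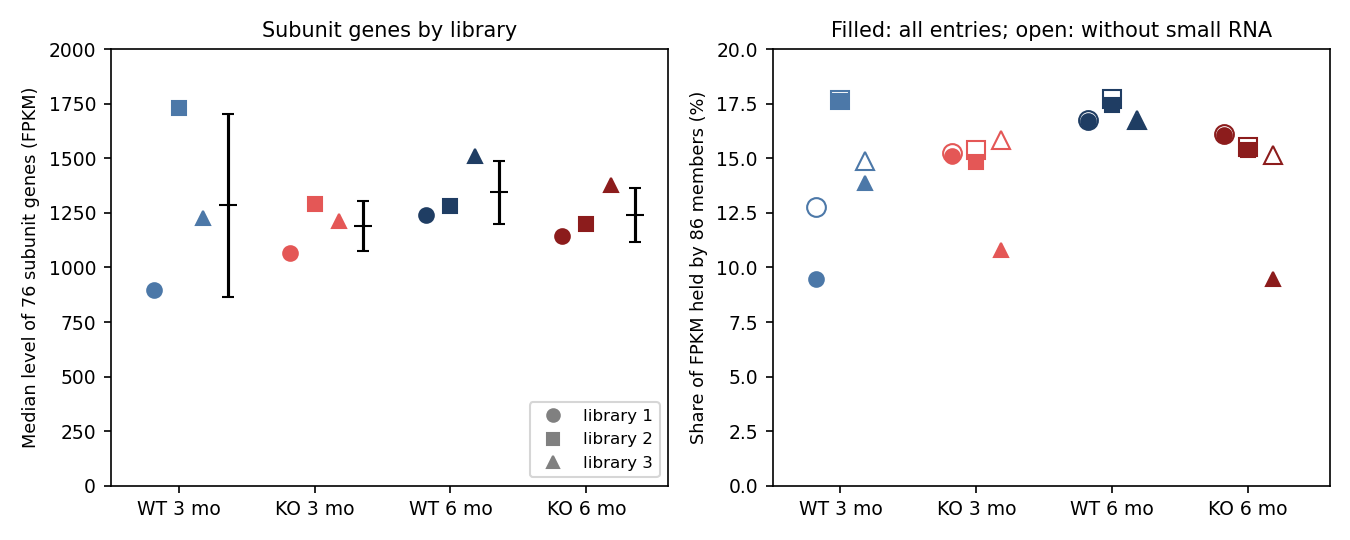
Left, median FPKM of the 76 structural members in each library, with the mean and SD of each group (n = 3) as a bar; right, percent of the library's FPKM sum held by the 86 members, filled for all entries and open without small RNA entries. The filled symbols drop to 9.48%, 10.8% and 9.48% in the 3 libraries rich in small RNA, and their open symbols lie at 12.8% to 15.9%.

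KO against WT at 3 months, no ribosomal protein gene changed by the test used. With limma on log2(FPKM + 1), 0 of 83 members passed an adjusted p of 0.05 and 0 had an unadjusted p under 0.05; over all 11196 genes 0.00893% passed the adjusted p and 6.8% the unadjusted one. Log2 differences ran from -0.50 (Rps27rt) to 0.46 (Rps4l), and the 95% interval lay within 1 log2 unit of 0 for 75 of 76 structural members. The members' median difference was -0.07, with 59 of 83 below 0, beside 0.01 over all tested genes, of which 48.7% were below 0, but it was 0.14 after quantile normalisation and 0.07 when small RNA entries were left out of the scaling, which moved the median of all genes to 0.12. It was 0.17 without 3-month WT library 2 and -0.32 without 3-month WT library 1.

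Rpl3, a protein close to the peptidyl transferase centre, had the smallest p at this age. Its level was 767, 961 and 699 FPKM in 3-month WT and 872, 1278 and 1080 FPKM in 3-month KO libraries. Most KO values were above most WT values, with overlap. The log2 difference was 0.41 (SE 0.24, limma adjusted p 0.774). Rpl36al, a paralog of the large subunit gene Rpl36a, was at 1209, 2510 and 2027 FPKM in 3-month WT and 1228, 1593 and 1291 FPKM in 3-month KO. The lowest of these 6 was a WT library, and the log2 difference was -0.43 (SE 0.30, limma adjusted p 0.807). It was -0.73 without 3-month WT library 1 and -0.20 without library 2 of that group. Groups failed to overlap for 1 of 83 members, Rpl7l1, against 10.2% of all tested genes.

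At 6 months KO and WT gave the same count. By limma 0 of 83 members passed the adjusted p, with 0 at an unadjusted p under 0.05, against 0.0268% and 1.22% of all tested genes. The median difference was -0.10 (66 of 83 below 0; all tested genes 0.01, with 48.5% below 0). It stayed below 0 with median-of-ratios scaling (-0.11), quantile normalisation (-0.10) and both rescalings without small RNA entries (-0.13 and -0.16), and was 0.02 without 6-month WT library 3. Intervals lay within 1 log2 unit of 0 for 74 of 76 structural members.

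KO and WT libraries did not overlap for 7 of 83 members at 6 months, against 6.8% of all tested genes. Of these, 6 were lower in KO (3.01% of all tested genes): Rpl11, Rpl7a and Rpl9 of the large subunit, the stalk protein Rplp2, and Rps3 and Rps9 of the small subunit. Rpl7l1 was higher. Rpl7a was at 667, 721 and 707 FPKM in 6-month WT and 579, 607 and 562 FPKM in 6-month KO. The 2 ranges were separate, by a log2 difference of -0.26 (SE 0.20, limma adjusted p 1.0). Rpl11, which binds 5S rRNA together with Rpl5 and can restrain Mdm2, was at 1417, 1530 and 1991 FPKM in WT and 1315, 1391 and 1375 FPKM in KO. Its lowest WT value lay just above the highest KO value. Its partner Rpl5 was at 530, 497 and 750 FPKM in WT and 521, 495 and 545 FPKM in KO, with overlap.

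Averaged over both ages, KO against WT gave 0 of 83 members at an adjusted p under 0.05 by limma, and 0 at an unadjusted p under 0.05, against 0.0179% and 5.96% of all tested genes. No member had KO and WT libraries that did not overlap over both ages (0.259% of all tested genes). The median difference was -0.07, with 67 of 83 below 0 against 48.9% of all tested genes, and it was 0.03 after quantile normalisation. Rpl41 was at -0.26 (SE 0.17, limma adjusted p 0.795) and Rpl7a at -0.22 (SE 0.14, limma adjusted p 0.793). Without 3-month WT library 2 they were at -0.15 and -0.13. The typical 95% interval of a structural member reached 0.40 log2 units to either side.

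Among the proteins with roles of their own, Rps6, the substrate of the S6 kinases, was at 704, 1244 and 901 FPKM in 3-month WT, 870, 1049 and 956 FPKM in 3-month KO, 861, 851 and 1184 FPKM in 6-month WT, and 835, 816 and 868 FPKM in 6-month KO. WT and KO overlapped at both ages. The stalk genes Rplp0, Rplp1 and Rplp2, whose proteins recruit the elongation factors, had averaged differences of 0.02, 0.01 and -0.10 on the log2 scale, with SE of 0.16, 0.20 and 0.16. Rpsa, also known as a laminin receptor, had -0.11 (SE 0.18). None of these passed the test.

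Of the ribosomal proteins that the selection by symbol leaves out, Rps27a and Fau are made as fusions with ubiquitin or a ubiquitin-like protein, and Gnb2l1 codes for the scaffold Rack1. These 3 ranged from 1281 to 2852 FPKM, 769 to 1378 FPKM and 535 to 994 FPKM over the 12 libraries. Their averaged KO against WT differences were -0.18, -0.19 and -0.09 on the log2 scale, and limma passed none of the 3 (adjusted p 0.863, 0.828 and 0.920).

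**Figure D3:**
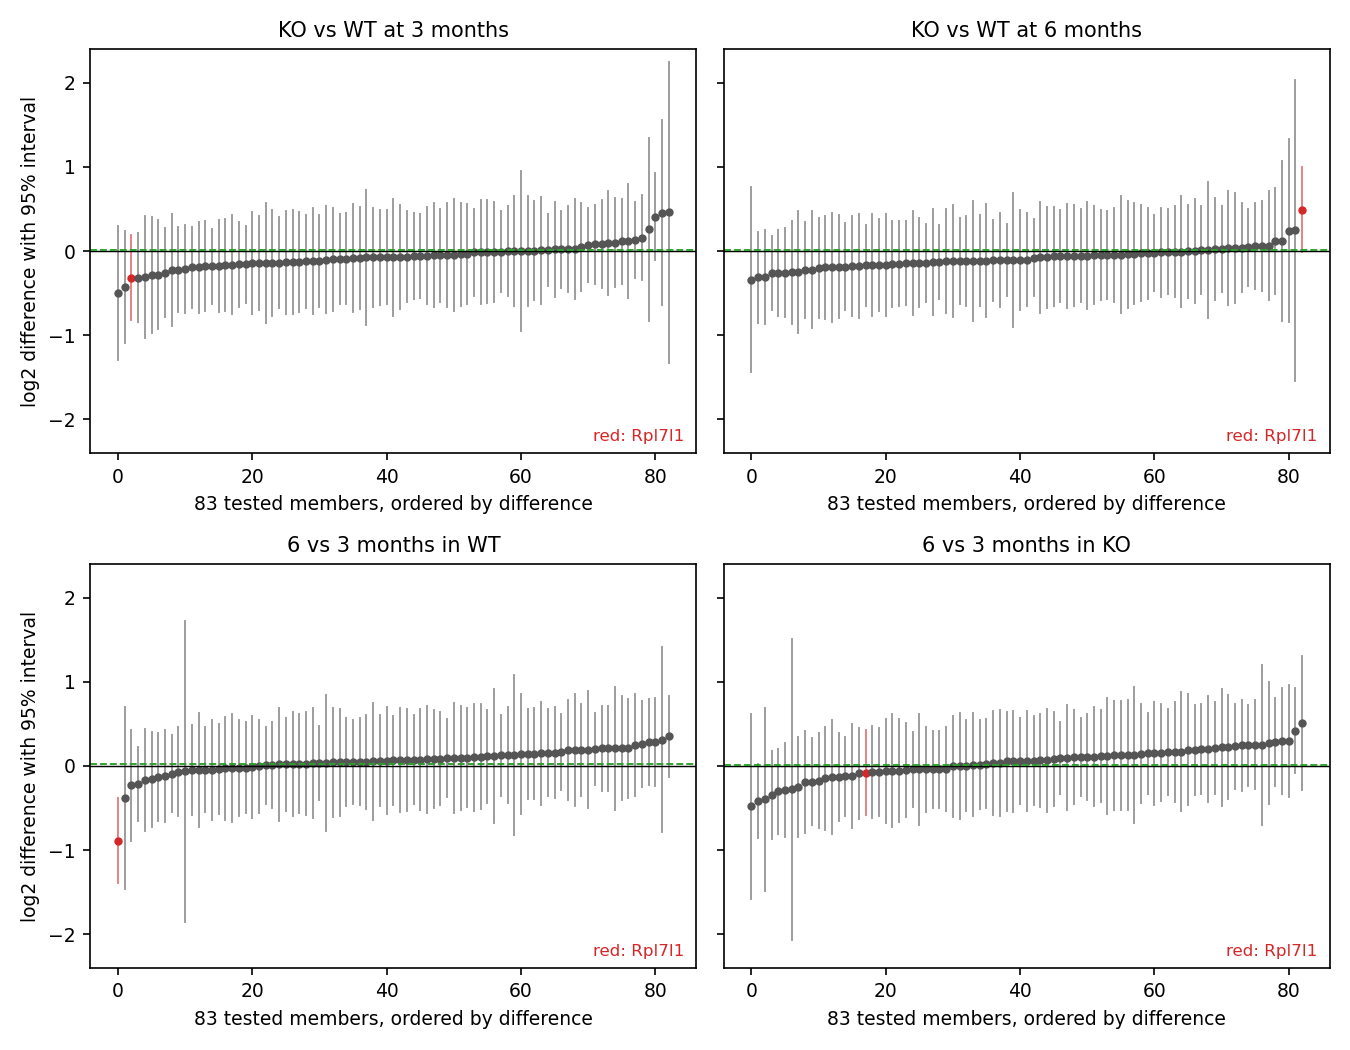
The log2 difference of each of the 83 tested members with its 95% interval from limma, ordered by size within 4 comparisons; the dashed line is the median of all 11196 tested genes and red marks Rpl7l1. Nearly all intervals cross 0; in 6 against 3 months within WT, Rpl7l1 lies at -0.89 with an interval from -1.40 to -0.38.

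Between the ages, within WT, limma again passed 0 of 83 members, with 1 at an unadjusted p under 0.05, against 0.00893% and 7.44% of all tested genes. The unadjusted count depended on the scaling, and was 6 with small RNA entries and members left out of it, and it was 5 without 3-month WT library 2. The members' median was 0.07 (61 of 83 above 0; all tested genes 0.03, with 51.9% above 0), and it was -0.17 without 3-month WT library 1 and 0.32 without 3-month WT library 2. Groups did not overlap for 2 of 83, Rpl4 and Rpl7l1, both lower at 6 months, against 15.7% of all tested genes (7.81% lower). Rpl28 of the large subunit was the highest by p, at 754, 1365 and 1029 FPKM at 3 months and 1233, 1367 and 1312 FPKM at 6 months. The 6-month values sat at the top of the 3-month range, by 0.35 on the log2 scale (SE 0.22, limma adjusted p 0.733). It was 0.14 without 3-month WT library 1 and 0.56 without library 2 of that group.

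Within KO, 6 against 3 months gave 0 of 83 members by limma, with 0 at an unadjusted p under 0.05, against 0.0179% and 6.48% of all tested genes. The unadjusted count was 6 after quantile normalisation. The median was 0.06 (52 of 83 above 0; all tested genes 0.01, with 50.8% above 0), but it was -0.08 after quantile normalisation and -0.01 with small RNA entries left out of the scaling. Groups did not overlap for 12 of 83 members, 7 higher and 5 lower at 6 months, against 12.8% of all tested genes (6.82% higher and 5.98% lower). Rpl4, which lines the exit tunnel of the large subunit, was at 1229, 1516 and 1163 FPKM at 3 months and 1033, 1056 and 834 FPKM at 6 months. All 6-month values lay below the 3-month values, by -0.42 on the log2 scale (SE 0.20, limma adjusted p 0.745). In WT the same gene went from 1128, 1428 and 1145 FPKM to 1126, 995 and 1053 FPKM, a log2 difference of -0.22 (SE 0.20, limma adjusted p 0.836), or -0.11 without 3-month WT library 2.

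The difference between the 2 ages in the effect of KO, the interaction of genotype and age, passed the test for 0 of 83 members by limma (0.00893% of all tested genes), with 1 at an unadjusted p under 0.05 (2.0% of all tested genes). The unadjusted count was 0 with small RNA entries left out of the scaling and 3 after quantile normalisation. The median was -0.01 (44 of 83 below 0, against 49.2% of all tested genes), and -0.23 after quantile normalisation. Its precision was the lowest of the comparisons: the interval lay within 1 log2 unit of 0 for 56 of 76 structural members. After Rpl7l1 the smallest p was that of Rpl3, at -0.40 (SE 0.34, limma adjusted p 1.0), or -0.26 without 3-month KO library 2.

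Rpl7l1 was the member that departed most from the others. It lies at chr17:46773907-46782672 on the minus strand (GRCm38) and codes for a relative of the large subunit protein Rpl7 that binds precursors of the large subunit in the nucleolus. Its level was 70.6, 92.7 and 69.4 FPKM in 3-month WT, 59.4, 65.6 and 59.7 FPKM in 3-month KO, 43.5, 38.5 and 41.3 FPKM in 6-month WT, and 47.3, 57.2 and 72.5 FPKM in 6-month KO. In the deposited values KO was below WT at 3 months and above WT at 6 months, without overlap at either age. The separation at 3 months depended on the scaling. Dividing by the relative library sums without small RNA entries (1.05 in 3-month WT library 3, 0.985 in 3-month KO library 2) brings the groups into overlap there. The 6-month WT libraries were the 3 lowest of the 12.

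On the log2 scale the KO against WT difference of Rpl7l1 was -0.32 at 3 months (SE 0.23, limma adjusted p 0.809; -0.19 without 3-month WT library 2) and 0.49 at 6 months (SE 0.23, limma adjusted p 1.0). The interaction was 0.81 (SE 0.33, 95% interval 0.09 to 1.52), with an unadjusted p of 0.0297 and a limma adjusted p of 1.0. From 3 to 6 months it differed by -0.89 in WT (SE 0.23), with an unadjusted p of 0.0024 and a limma adjusted p of 0.664, and in KO the 2 ages overlapped. Non-overlap in opposite directions at the 2 ages occurred for 1.2% of members (1 of 83) and 0.214% of all tested genes (24 of 11196). Since Rpl7l1 was singled out for this pattern, the unadjusted p of its interaction is no independent support. The parent gene Rpl7, at 1153 to 2412 FPKM, showed no such order: its 6-month WT libraries were at 1407, 1385 and 2078 FPKM and its 6-month KO libraries at 1218, 1234 and 1594 FPKM.

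The paralogs fell into 2 sets. Rpl7l1 (mean 59.8 FPKM against 1539 FPKM for Rpl7) and Rps4l (9.28 FPKM against 1363 FPKM for Rps4x) were minor beside their parents. Rpl39l, Rpl3l and Rpl10l were near or at 0, with means of 1.11, 0.122 and 0 FPKM; the second is known from striated muscle and the third from testis. Rpl39l reached 1.54 FPKM in library 3 of the younger KO mice and 10.8 FPKM in library 3 of the older, where the oocyte and theca marker sums were highest, and at most 0.652 FPKM elsewhere. The part of those cells in its level was not tested.

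By contrast, 4 relatives were above their parent gene in 12 of 12 libraries. Rpl22l1 had a mean of 424 FPKM against 81.8 FPKM for Rpl22, and made up 75.0% to 90.4% of the sum of the pair. Rpl36al had 1617 FPKM against 876 FPKM for Rpl36a, Rps27l, a gene known as a p53 target, had 2273 FPKM against 658 FPKM for Rps27, and Rps27rt had 3202 FPKM. FPKM is per length, so these orders are of transcript levels, as far as reads were assigned to the right copy.

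Rpl22l1 varied most among the members above 100 FPKM, with a within-group SD of 0.71 on the log2 scale. It was at 199, 567 and 354 FPKM in 3-month WT, 411, 475 and 528 FPKM in 3-month KO, 382, 300 and 671 FPKM in 6-month WT, and 219, 226 and 764 FPKM in 6-month KO. Library 3 was the highest in 3 of the 4 groups. The blood and leukocyte markers were highest in library 3 of all 4 groups, and their part in this was not tested. Its parent Rpl22, at 63.2 to 110 FPKM, had an SD of 0.30.

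Rps27, a zinc-binding protein of the small subunit, had the largest within-group SD of the structural members, 0.70. It was at 526, 810 and 596 FPKM in 3-month WT, 644, 1307 and 517 FPKM in 3-month KO, 198, 638 and 907 FPKM in 6-month WT, and 621, 470 and 656 FPKM in 6-month KO. One high and 1 low library stand out, and the 6-month KO against WT difference of 0.24 (SE 0.50, limma adjusted p 1.0) became -0.40 without 6-month WT library 1. The retrocopy Rps27rt was at 2182, 4558 and 3437 FPKM, then 1890, 1823 and 3533 FPKM, then 3069, 3012 and 4701 FPKM, then 2517, 2888 and 4811 FPKM in the same order of groups. It did not share the high and low libraries of Rps27: its highest library was 6-month KO library 3 and its lowest 3-month KO library 2. The latter was the highest library of Rps27, and the part of read assignment between the copies in this was not tested. Other variable members were Rps4l (SD 1.18), Rpl26 (0.60) and Rpl39 (0.50).

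**Figure D4:**
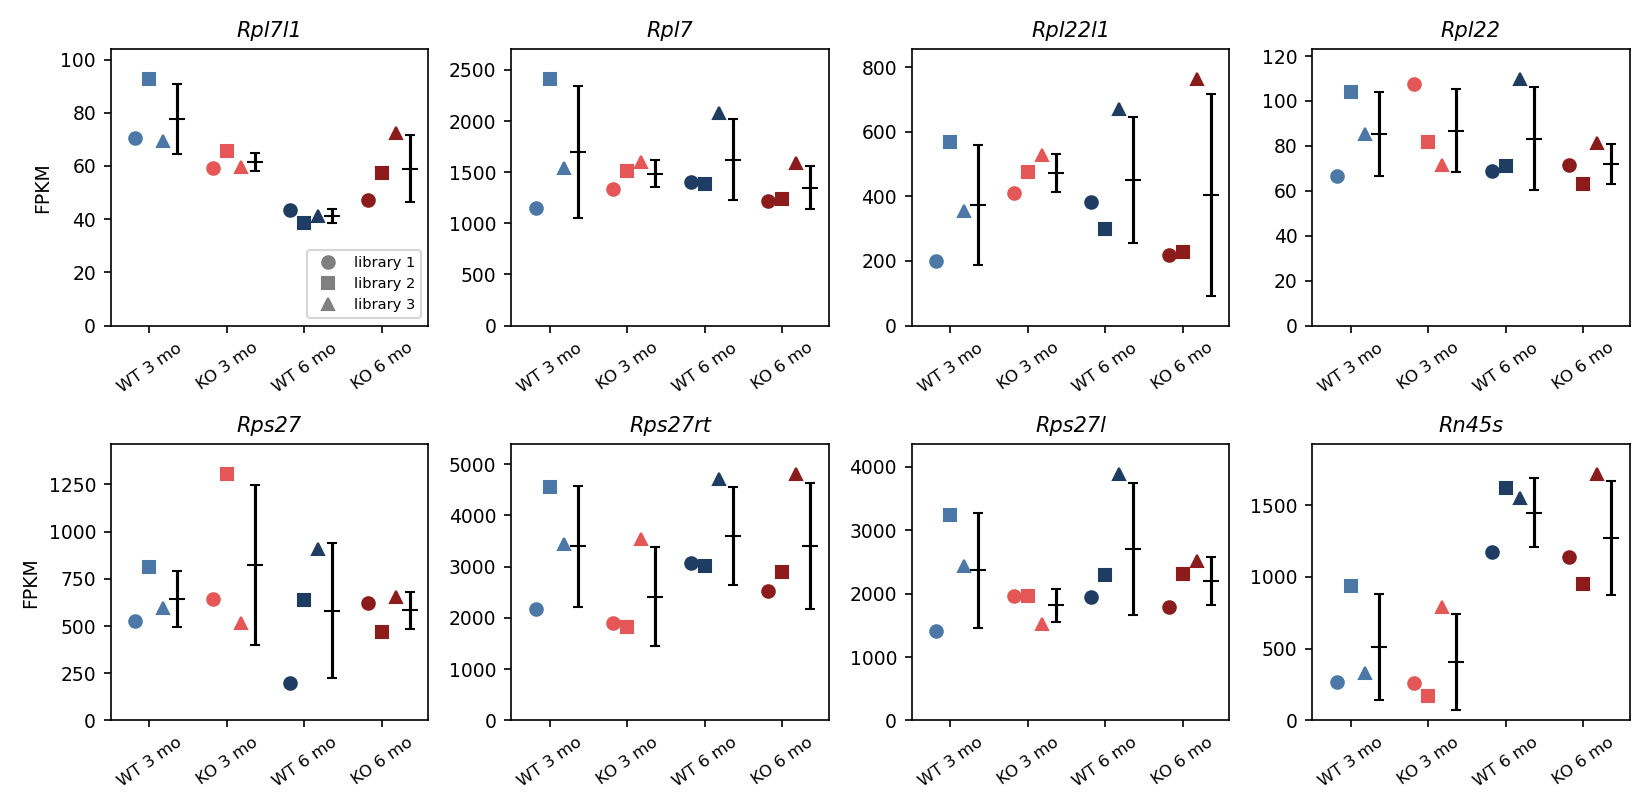
FPKM of 7 members and of the ribosomal RNA precursor entry Rn45s in each of the 12 libraries (symbols by library number), with the mean and SD of each group (n = 3) as a bar beside them. Rpl7l1 is at 38.5 to 43.5 FPKM in 6-month WT and higher in the other groups, and Rpl22l1, Rps27rt and Rps27l lie above Rpl22 and Rps27 in every library.

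Sequences around the transcription starts were searched for the tract for which these mRNAs are known, in subunit genes, paralogs and the retrocopy. Promoter windows from RefSeq (GRCm38.p6), 250 bases before to 50 after the annotated start, matched 66 of the 86 members and 57 of the 76 structural ones. A C followed by at least 4 pyrimidines, beginning within 5 bases of the start on the sense strand, was found in 27 of 57 structural members (47.4%) and in 21.2% of all 27025 genes with a window. The lines below are examples, and a larger share of them holds the tract than of the structural members. Each line gives 30 bases from 10 before the start, with the tract in capitals.
Rps6: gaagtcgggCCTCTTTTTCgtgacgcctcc
Rps18: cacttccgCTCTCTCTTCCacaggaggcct
Rpl38: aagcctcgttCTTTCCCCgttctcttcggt
Rpl12: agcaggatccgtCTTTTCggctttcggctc
Rps15a: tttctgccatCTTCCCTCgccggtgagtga
Rpl22l1: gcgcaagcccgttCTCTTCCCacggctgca
Rps27: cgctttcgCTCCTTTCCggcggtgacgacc
Rps27rt: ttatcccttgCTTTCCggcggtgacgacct
Rpl41: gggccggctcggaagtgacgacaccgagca
Rpl7l1: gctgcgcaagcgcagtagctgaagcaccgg

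These windows lie at chr4:86857348-86857377 (Rps6, minus strand), chr17:33955646-33955675 (Rps18, minus), chr11:114668570-114668599 (Rpl38, plus), chr2:32961702-32961731 (Rpl12, plus), chr7:118116128-118116157 (Rps15a, minus), chr3:28805498-28805527 (Rpl22l1, plus), chr3:90213629-90213658 (Rps27, minus), chr9:114982720-114982749 (Rps27rt, minus), chr10:128549149-128549178 (Rpl41, minus) and chr17:46782637-46782666 (Rpl7l1, minus). The windows of Rpl41, the member of highest level, and of Rpl7l1 hold no such tract at the annotated start, so both the most abundant gene and the one that departed most are shown beside the others. Rps15a has a tract of 8 bases and was the structural member of lowest level. The Rps27 and Rps27rt windows share a run of 19 bases (ctttccggcggtgacgacc) that starts inside the tract. In the 120 bases before the start their longest common run is 10 bases.

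Of the factors known to act at these promoters, GABP was searched as CCGGAAG. The search for SP1 used GGGCGG. For YY1 the letters were AAGATGGC. Both strands were read, and none of these words contains another. CCGGAAG was in 24 of 57 structural windows (42.1%) and 9.93% of all genes, GGGCGG in 35 of 57 (61.4%) and 38.2%, and AAGATGGC in 5 of 57 (8.77%) and 3.19%. A match describes letters and is not evidence of binding. The lines give the 120 bases before the start for 2 members of high level and for Rpl7l1, with matches in capitals.
Rpl41: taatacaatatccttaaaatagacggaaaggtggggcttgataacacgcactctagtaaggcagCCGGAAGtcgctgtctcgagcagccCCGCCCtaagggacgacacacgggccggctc
Rpl38: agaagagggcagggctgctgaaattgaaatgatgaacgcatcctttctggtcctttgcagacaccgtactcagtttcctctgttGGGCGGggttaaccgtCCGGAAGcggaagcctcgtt
Rpl7l1: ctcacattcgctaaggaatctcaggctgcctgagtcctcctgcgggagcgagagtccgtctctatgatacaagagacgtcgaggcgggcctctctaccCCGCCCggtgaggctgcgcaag

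They are chr10:128549169-128549288 (minus), chr11:114668460-114668579 (plus) and chr17:46782657-46782776 (minus). Rpl41 and Rpl38 each hold CCGGAAG and GGGCGG, in Rpl41 the latter on the opposite strand, and Rpl7l1 holds GGGCGG on the opposite strand.

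Genes that build and serve the ribosome were compared with the subunit genes. None of the 22 translation factors, 44 ribosome biogenesis factors, 15 genes of the RNA polymerase I machinery, 14 genes of mTORC1 and LARP1 control, or 77 mitochondrial ribosomal proteins passed limma's adjusted p in any of the 6 comparisons. Biogenesis factors were mostly lower at 6 than at 3 months, although limma passed 0 of them: 33 of 44 were below 0 in WT (median -0.33, 4 at an unadjusted p under 0.05) and 38 of 44 in KO (median -0.33, 4 at an unadjusted p under 0.05, 1 of them higher), against 48.1% and 49.2% of all tested genes below 0 and 7.44% and 6.48% at an unadjusted p under 0.05. Among all genes with at least 5 FPKM in at least 3 libraries, 44.2% were above 0 in WT, with a median of -0.07. The median of the biogenesis factors stayed below 0 in all 19 settings tried for each genotype, scalings and left-out libraries included. It ran from -0.43 to -0.15 in WT and from -0.60 to -0.08 in KO, the last without 3-month KO library 2. The subunit genes and their paralogs had medians of 0.07 in WT and 0.06 in KO in the same comparisons, the first -0.17 without 3-month WT library 1 and the second -0.08 after quantile normalisation.

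Among biogenesis factors, Sbds, which helps to release Eif6 from the new large subunit, was at 144, 157 and 60.2 FPKM in 3-month WT and 45.7, 39.0 and 68.2 FPKM in 6-month WT, a log2 difference of -1.15 (SE 0.38, limma adjusted p 0.664). One 6-month library overlapped the 3-month range. Eif6, which keeps new large subunits from joining, was at 97.0, 124 and 76.1 FPKM against 65.0, 55.7 and 37.4 FPKM, a difference of -0.90 (SE 0.29, limma adjusted p 0.664). All its 6-month WT values were below the 3-month ones. Riok2, a kinase of late small subunit maturation, was at 49.3, 47.7 and 24.5 FPKM in 3-month WT and 18.4, 18.9 and 21.4 FPKM in 6-month WT, and at 31.6, 38.1 and 32.9 FPKM in 3-month KO and 27.4, 15.4 and 14.0 FPKM in 6-month KO. The ages did not overlap in either genotype, with differences of -0.95 and -0.88 (SE 0.33 each, limma adjusted p 0.664 and 0.745).

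KO against WT at 3 months, the smallest p among these lists were those of Polr1b, the second largest subunit of RNA polymerase I, and Eif4ebp1, a repressor of cap-dependent translation under mTORC1. Polr1b was at 1.21, 1.46 and 1.95 FPKM in 3-month WT and 6.98, 6.61 and 3.58 FPKM in 3-month KO, 1.37 higher on the log2 scale (SE 0.33, limma adjusted p 0.628), at levels where few reads decide. Eif4ebp1 differed by -1.16 (SE 0.29, limma adjusted p 0.628). Neither passed the test. Their interactions of genotype and age went the other way, at -1.26 (SE 0.46) for Polr1b and 1.205 (SE 0.41) for Eif4ebp1. These did not pass either, and the differences hold for 3 months only.

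The entry for the 45S ribosomal RNA precursor, Rn45s, was singled out after its values were seen. It was at 264, 934 and 328 FPKM in 3-month WT, 262, 168 and 788 FPKM in 3-month KO, 1172, 1622 and 1547 FPKM in 6-month WT, and 1141, 952 and 1719 FPKM in 6-month KO. All 6-month libraries lay above all 3-month libraries. The log2 differences were 1.73 in WT and 1.91 in KO (SE 0.56 each), with limma adjusted p of 0.664 and 0.745. Smart-Seq2 primes on poly(A), so this entry does not measure rRNA content.

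Introns of ribosomal protein genes also carry small nucleolar RNAs. GENCODE M21 places 58 small nucleolar RNA genes inside 30 members on the same strand, in introns or within annotated host exons. Snora65 and Snora3 are among those within an exon of the host, and whether their fragments came from host transcripts was not tested. Of the 58, 33 were in the table, and 17 of those were at 0 in all libraries. Snora65, inside Rpl12, was listed at 26.2, 23.2 and 50.5 FPKM in 6-month WT and at 0 in the 3 libraries of 6-month KO, a difference that passed limma (adjusted p 0.000592). At 3 months it was at 15.3, 24.7 and 23.6 FPKM in WT and 15.9, 22.3 and 48.4 FPKM in KO, which overlapped (log2 difference 0.31, limma adjusted p 0.892). Snora3, inside Rpl27a and of similar length (132 against 130 bases), was at 21.4 to 24.1 FPKM in 4 libraries and at 0 in the other 8, so values of this size may rest on 1 or a few fragments. The host of Snora65, Rpl12, a protein at the base of the stalk, was at 498, 487 and 635 FPKM in 6-month WT and 490, 463 and 638 FPKM in 6-month KO. The host levels overlapped and differed by -0.03 on the log2 scale (SE 0.27).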

How the data were processed

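The deposited table holds FPKM per gene, which the authors made per the submitters' processing notes on GRCm38/mm10; the tools named there are Cufflinks 1.2.1, SAMtools 0.1.18, Bowtie2 2.1.0, TopHat2 2.0.10, FastQC and cutadapt, with an annotation not given in the sources used here. Per the labels' protocols, cDNA came from Smart-Seq2 and libraries from Nextera XT, read as 75 bp pairs. The FPKM sum of a library is not fixed, and ran from 627194 to 1366500. A class of abundant RNA lowers the share of all other entries in that sum. Whether it also lowered their FPKM values was not tested. Library 3 of 6-month KO, with 37.5% small RNA, had the highest median structural level of its group, 1379 FPKM. Library 1 of 3-month WT, with 25.7%, had the lowest of all 12 libraries, 895 FPKM. Library 3 of 3-month KO, with 32.0%, was in the middle of its group at 1212 FPKM.

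Genes with at least 1 FPKM in at least 3 of 12 libraries (11196) were tested as log2(FPKM + 1), pseudocount 1, which understates changes of low genes, in R 4.3.3 with limma 3.58.1 (4 group means, eBayes with trend, 8 residual and 3.9 prior degrees of freedom, 2-sided, Benjamini-Hochberg over all tested genes, threshold 0.05). The code was tested on simulated data. Low values carry the error of few reads. The members and lists were chosen with earlier results of these data known. Named were the 5 highest and lowest members, those with the smallest p per comparison and direction, the most variable, paralogs, members with known roles of their own, and per list those with the smallest p. Some members and genes that this rule names are not reported here; counts and medians include them. Tables were handled in Python 3.11.15 (numpy 2.4.6, pandas 2.3.3) and drawn with matplotlib 3.10.9. No 2 libraries were identical.

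The labels' replicate numbers may pair samples. Deviations of same-numbered libraries correlated at 0.16, 0.37 and 0.47 for KO and WT at 6 months. For the ages in KO they correlated at 0.11, 0.39 and 0.65. Libraries 1 and 2 correlated better with each other's number. The labels do not say that the numbers mark a shared litter or day, so the main test did not treat them as pairs. A replicate block was fitted as an alternative only, and it changed no call. The alternatives were other pseudocounts, filters and scalings, the replicate block, subunit genes alone, only the groups compared, and left-out libraries; scaling to an equal member median was added after seeing the data.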

Additional observations from a re-analysis of the deposited data

Results flagged for a closer look

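Rpl7l1 was singled out because its KO and WT libraries were separate in opposite directions at the 2 ages in the deposited values. The interaction below measures that same pattern. Its unadjusted p and its range over left-out libraries use the values that chose the gene, and are no independent support. The log2 difference of KO from WT was -0.32 at 3 months, with all 3 KO libraries (59.4 to 65.6 FPKM) below all 3 WT libraries (69.4 to 92.7 FPKM). It was 0.49 at 6 months, with all 3 KO libraries (47.3 to 72.5 FPKM) above all 3 WT libraries (38.5 to 43.5 FPKM). The difference between the ages was tested as an interaction, 0.81 with an unadjusted p of 0.0297 and a limma adjusted p of 1.0 over 11196 genes, so it did not pass. Leaving out any 1 library gave an interaction of 0.65 to 0.96. No member had an unadjusted limma p under 0.05 without 3-month KO library 1, 3-month WT library 2, 6-month KO library 2 or 6-month WT library 2. With small RNA entries left out of the scaling, the largest interaction of any member was 0.64, and 0 members had an unadjusted limma p under 0.05.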

How the results depend on the processing

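No member passed the adjusted p in any of the 124 alternatives to the 6 comparisons. No member median moved by more than the within-group SD of the libraries' member medians, 0.27 on the log2 scale. That SD exceeds every main median in size and was widest in 3-month WT (0.47). Medians that changed sign therefore also count as unmoved. Across these alternatives the smallest limma adjusted p of a member ran from 0.313 at 3 months, 0.987 at 6 months, 0.607 averaged, 0.931 for the interaction, 0.221 for age in WT and 0.407 for age in KO up to at most 1.0. Scaling to an equal member median sets the members' median near 0 by construction, so its medians say nothing about direction. Leaving out 1 library gave 0 members passing each time, and member medians of -0.32 to 0.17 at 3 months, -0.19 to 0.02 at 6 months, -0.20 to 0.04 averaged, -0.25 to 0.22 for the interaction, -0.17 to 0.32 for age in WT and -0.05 to 0.12 for age in KO. Of 472 alternatives to 24 differences of single members, 2 turned the direction, both of Rps27 without 6-month WT library 1: -0.40 at 6 months (range over left-out libraries -0.40 to 0.69) and -0.071 averaged (-0.071 to 0.48).

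With the replicate block, 0 members passed in each of the 6 comparisons, as without it. The check of the pairing gave correlations of 0.09, -0.02 and 0.21 for KO and WT at 3 months. For the ages in WT they were 0.03, 0.03 and 0.28. In all 4 comparisons checked, libraries 1 and 2 matched each other's number best and library 3 its own. The typical half-width of the 95% interval was 0.57 log2 units for comparisons of 2 groups. It was 0.40 averaged over the ages and 0.81 for the interaction. Differences smaller than these could not be resolved with 3 libraries a group. Larger ones need not pass the adjusted p: Rpl7l1, at -0.89 for age in WT, had a limma adjusted p of 0.664.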
